A study of Mus musculus with 7 samples.

Results

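The cytosolic ribosomal protein genes were followed in the brown fat of newborn mice with and without glycerol kinase. Members were all genes with a symbol that begins with Rpl or Rps and a digit, together with Rplp0, Rplp1, Rplp2 and Rpsa, without the Rps6k kinases, pseudogenes named as such and predicted genes. Of 18193 genes with a probe set of their own, 50 met this rule: 22 of the large ribosomal subunit, 21 of the small subunit, 6 paralogs of ribosomal protein genes, and Rps19bp1, which the symbol rule admits although it encodes a partner of Rps19 and no ribosomal protein. RefSeq classes 1 of the 6 paralogs, Rps4l, as a transcribed pseudogene. All 7 samples were brown fat of C57BL/6J mice, male by their labels and 3 days old, and each was read on 1 Affymetrix array. In 4 of them (KO replicates 1 to 4) Gyk, which encodes glycerol kinase, had been knocked out. The other 3 (replicates 1, 3 and 4) were wild type and served as the control. The labels give neither the allele nor whether each replicate was its own animal. The p-values therefore rest on the spread among these 7 samples, which may be technical.

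The ribosome is built from ribosomal RNA and many small, mostly basic proteins in a large and a small subunit, which cells make in matched amounts. The messenger RNAs of these proteins are among the most abundant of any tissue. Most begin with a C and a run of pyrimidines, the terminal oligopyrimidine tract, through which the kinase complex mTORC1 and the RNA-binding protein Larp1 control their translation and stability.

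This tract is shown because it is the sequence feature that the family is known for. RefSeq (GRCm38.p6) had promoter entries for 44 of the 50 members, 52 entries in all. A C followed by at least 4 pyrimidines stood exactly at the annotated start in 8 of these 52 entries (15.4%), against 2.51% of all 32851 promoters of the same length. Each line gives 15 bases before and 15 bases from the annotated start, 5′ to 3′, with the tract in capitals.
Rps18: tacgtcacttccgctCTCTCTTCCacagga
Rps10: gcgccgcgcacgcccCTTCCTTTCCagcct
Rps6: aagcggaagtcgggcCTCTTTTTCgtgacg
Rps27: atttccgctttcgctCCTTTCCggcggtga
Rpl35: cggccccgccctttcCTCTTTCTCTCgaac
Rpl38: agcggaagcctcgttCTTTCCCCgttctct
Rpl14: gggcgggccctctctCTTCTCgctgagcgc
Rplp2: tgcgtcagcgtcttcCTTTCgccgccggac
Rps3: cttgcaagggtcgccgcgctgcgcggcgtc
Rpl7l1: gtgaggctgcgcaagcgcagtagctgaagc
The first 8 are the members with the tract at the start. Rps3, the member with the largest difference between the genotypes, and Rpl7l1, a paralog that lay lower in KO, are given for comparison and have none at the annotated start. The windows lie at chr17:33955651-33955680 on the minus strand for Rps18, chr17:27635230-27635259 (minus) for Rps10, chr4:86857353-86857382 (minus) for Rps6 and chr3:90213634-90213663 (minus) for Rps27. They lie at chr2:39005117-39005146 (minus) for Rpl35, chr11:114668565-114668594 (plus) for Rpl38, chr9:120571502-120571531 (plus) for Rpl14, chr7:141447636-141447665 (plus) for Rplp2, chr7:99483695-99483724 (minus) for Rps3 and chr17:46782642-46782671 (minus) for Rpl7l1. Each covers the end of the promoter and the start of the first exon. In other members, such as Rpl13a, the pyrimidine run lay a few bases after the annotated start and was not counted, so the count depends on where RefSeq places the start. The motif CCGGAA, on either strand, was in 28 of the 52 promoter entries (53.8%) and in 14.9% of all promoters. The motif AAGATGGC was in 4 (7.69%) and in 2.75% of all, and TATAAA in 6 (11.5%) and in 13.6% of all. The 8 members with the tract had a median log2 difference between KO and wild type of 0.14, and so had the 35 other tested members with a promoter entry.

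Genotypes rest on the labels, since no probe set in the table used was paired with Gyk and its level is not analysed here. The array labelled KO replicate 2 stood apart from the other KO arrays. On the first principal component (35.3% of the variance) it scored -13.8, against 33.4 to 35.7 for the other KO arrays and -33.3 to -23 for wild type. Xist, which coats and silences an X chromosome in female cells, read 2757 on it and at most 273 on the other 6 arrays, against its label as male. The main results are therefore given with and without it. This choice rests in part on the same values, and leaving out the KO array nearest to wild type favours larger differences. The share of all probe sets that passed went from 1.59% to 7.35% without it. A pass only without this array thus carries less weight than a pass with all arrays. The arrays were also deposited under 2 separate runs of accession numbers, wild-type replicate 1 with KO replicates 1 and 2, and wild-type replicates 3 and 4 with KO replicates 3 and 4. The second principal component (16.4% of the variance) separated these runs, with scores of 21.8 to 24.5 in the first and -23.6 to -12.5 in the second. The tissue label was met by its markers: Ucp1 read 26887 to 37577 and Cidea 22274 to 29639 over the 7 arrays. Median array signals lay between 131.2 and 153.7, and the small number of arrays limits the precision.

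No ribosomal protein gene passed the threshold between KO and wild type with all 7 arrays. Of the 50 members, 49 passed the filter on low values, and 0 of the 49 had an adjusted p under 0.05 (limma, Benjamini-Hochberg over 27022 probe sets), where 1.59% of all probe sets did. At an unadjusted p under 0.05 there were 4, against 16.5% of all probe sets. These were Rps3, Rpl8 and Rps9 on the higher side (7.97% of all) and Rps4l on the lower (8.55% of all). The 49 genes leaned to the higher side in KO by a small amount: 42 had a positive log2 difference, as had 50.1% of all probe sets, and the median was 0.14, against 0.00 over all probe sets. Without KO replicate 4 the median was 0.08, and without KO replicate 2 it was 0.21. The member left out by the filter was Rps16, a protein of the small subunit, whose own probe set read at most 15.8 on any array.

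The lean was uneven among the KO arrays. Relative to the wild-type mean, the median of the 49 genes was 0.30 on KO replicate 4, 0.20 on KO replicate 3, 0.10 on KO replicate 1 and -0.05 on KO replicate 2. The wild-type arrays, replicates 1, 3 and 4 in turn, had medians of 0.05, -0.05 and 0.00. KO replicate 2 was thus at the level of the lowest wild-type array. KO replicate 4 gave the highest signal of all 7 arrays for 33 of the 49 genes, and KO replicate 2 the lowest of the 4 KO arrays for 39. The spread within KO was also wider than within wild type, with a median coefficient of variation of 13.2% against 5.7%, and was the larger of the pair in 45 of 49 genes.

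**Figure D1:**
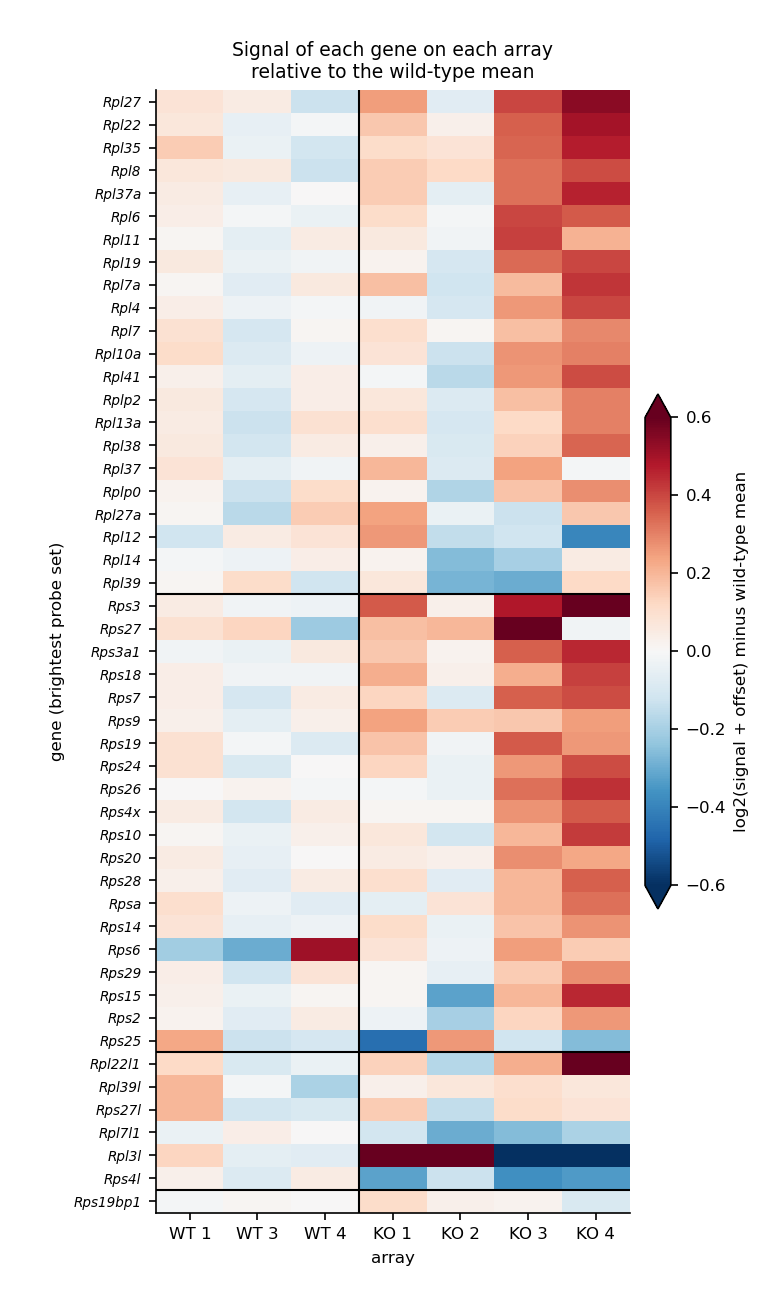
Heat map of the 49 tested genes (rows: large subunit, small subunit, paralogs and Rps19bp1, separated by lines) on the 7 arrays (columns), coloured by log2(signal + offset) minus the wild-type mean of the same gene. The columns of KO replicates 3 and 4 are red for most ribosomal proteins, with medians over the 49 genes of 0.20 and 0.30, while KO replicate 2 is near or below the wild-type level; colours end at 0.6 in either direction.

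Without the array labelled KO replicate 2, 1 of the 49 passed (Rps3), where 7.35% of all probe sets did, and 42 differences were positive (50.7% of all). Within the second deposited set alone (2 arrays of each genotype) the median was 0.31, 41 of 49 differences were positive (47.9% of all) and again 1 passed, Rps3, against 2.69% of all probe sets. Within the first set alone, which holds 1 wild-type array, the median was -0.04, 17 of 49 differences were positive (53.7% of all), and 0 members and 0.0% of all probe sets passed. With the deposited set as a covariate the median was 0.16, 42 were positive (51.1% of all) and 0 passed, against 2.34% of all probe sets. The size of the lean also depended on the scaling. After quantile normalization, which gives all arrays the same distribution of signals, the median was 0.06, 38 of 49 were positive (50.4% of all) and 0 passed, against 1.5% of all probe sets.

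Most members were read among the brightest probe sets of the arrays. Of the 450 probe sets that make up the brightest 1% of the array, 56 belonged to 34 members and 53 more carried a member symbol together with pseudogenes. The 99th percentile of signal was 11920 to 13670 on the wild-type arrays and 12330 to 13770 on the KO arrays, and it is set in part by these genes themselves. The following split was made after the values were seen. The 34 ribosomal proteins with a mean signal over 10000, paralogs left out, all had a positive difference (median 0.16), where 50.1% of all probe sets did. This set is not the same as the 34 members above. It leaves out the paralog Rps27l, with a mean signal of 13130 (0.05, and -0.01 after quantile normalization). After quantile normalization 31 of the 34 in this set had a positive difference (median 0.07), against 50.4% of all. The 34 moved together by array and are not separate observations. All 34 lay above the wild-type mean on KO replicates 3 and 4, 29 on KO replicate 1 and 11 on KO replicate 2. Other probe sets as bright were not counted. Of the 8 tested ribosomal proteins with a lower mean signal, 4 were positive and 4 negative.

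Among the 22 large-subunit genes, 19 differences were positive and 0 passed, with a median of 0.13 (0.21 without KO replicate 2). Rpl27, a core protein of the large subunit, read 14760, 14528 and 12760 on wild-type replicates 1, 3 and 4, and 16686, 13327, 18491 and 20280 on KO replicates 1 to 4. KO replicate 2 lay inside the wild-type range and the other 3 above it (log2 difference 0.28 ± 0.14, SE, limma adjusted p = 0.353; 0.40 and adjusted p = 0.0541 without that array). All 3 probe sets of Rpl27 were positive, between 0.22 and 0.34 with all arrays. The dimmest of them gave 0.46 without KO replicate 2 (limma adjusted p = 0.0208).

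Rpl8, which lies near the catalytic centre of the large subunit, was the only large-subunit gene whose groups did not overlap. It read 11934, 11921 and 10426 in wild type and 12672, 12368, 14356 and 14909 in KO. The lowest KO array was thus just above the highest wild-type array (log2 difference 0.25 ± 0.11, limma adjusted p = 0.277). In all, 2 of the 49 genes were higher in every KO array than in every wild-type array, against 7.48% of all probe sets, and 2 were lower in every KO array, against 7.25%. Without KO replicate 2 these counts were 22 and 2, against 13.0% and 14.1% of all probe sets. That array was the lowest KO array for 39 of the 49 genes, so leaving it out favours the count of higher genes.

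Rpl22, an RNA-binding protein of the large subunit, showed the widest disagreement between probe sets of 1 gene. Its brightest probe set read 14215 to 15457 in wild type and 15127 to 20949 in KO (log2 difference 0.26, adjusted p = 0.307). The next brightest gave 0.70, with 5722, 8050 and 5424 in wild type and 6531, 10065, 12265 and 13848 in KO (adjusted p = 0.157). The dimmest gave -0.26 (1345 to 1800 in wild type, 1059 to 1742 in KO). Groups overlapped on each of these 3 probe sets, and none passed. Of 21 members with more than 1 tested probe set, 16 had a positive difference on all of them, 0 had a negative difference on all, and 0 had probe sets that differed by more than 1.

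Of the other large-subunit genes among the 10 largest differences, Rpl35, at the mouth of the exit tunnel, had 0.25, Rpl37a 0.22 and Rpl6 0.22, with adjusted p between 0.341 and 0.413. All 6 tested probe sets of Rpl35 were positive, from 0.13 to 0.29. The stalk proteins recruit the elongation factors. Rplp0, the base of the stalk, read 22365, 20139 and 23914 in wild type and 22411, 19476, 24874 and 26750 in KO. The groups overlapped widely (log2 difference 0.07, 95% interval -0.20 to 0.34). The difference was 0.16 without KO replicate 2 and -0.01 after quantile normalization. Rplp2, another stalk protein, read 24918 to 27734 in wild type and 25130 to 32801 in KO (0.12, interval -0.13 to 0.36; 0.18 without KO replicate 2).

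The 3 negative differences among the large-subunit genes came from dim probe sets. Rpl12 read 213 to 249 in wild type and 172 to 286 in KO (-0.10), Rpl14 193 to 204 and 160 to 206 (-0.10), and Rpl39 864 to 1016 and 757 to 1025 (-0.10). The ranges overlapped for all of them, with adjusted p between 0.806 and 0.848. The differences without KO replicate 2 were -0.09, -0.04 and -0.04. Rpl27a, with a mean of 955 ± 105 (SD, n = 3) in wild type and 996.7 ± 121 (n = 4) in KO, differed by 0.06.

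**Figure D2:**
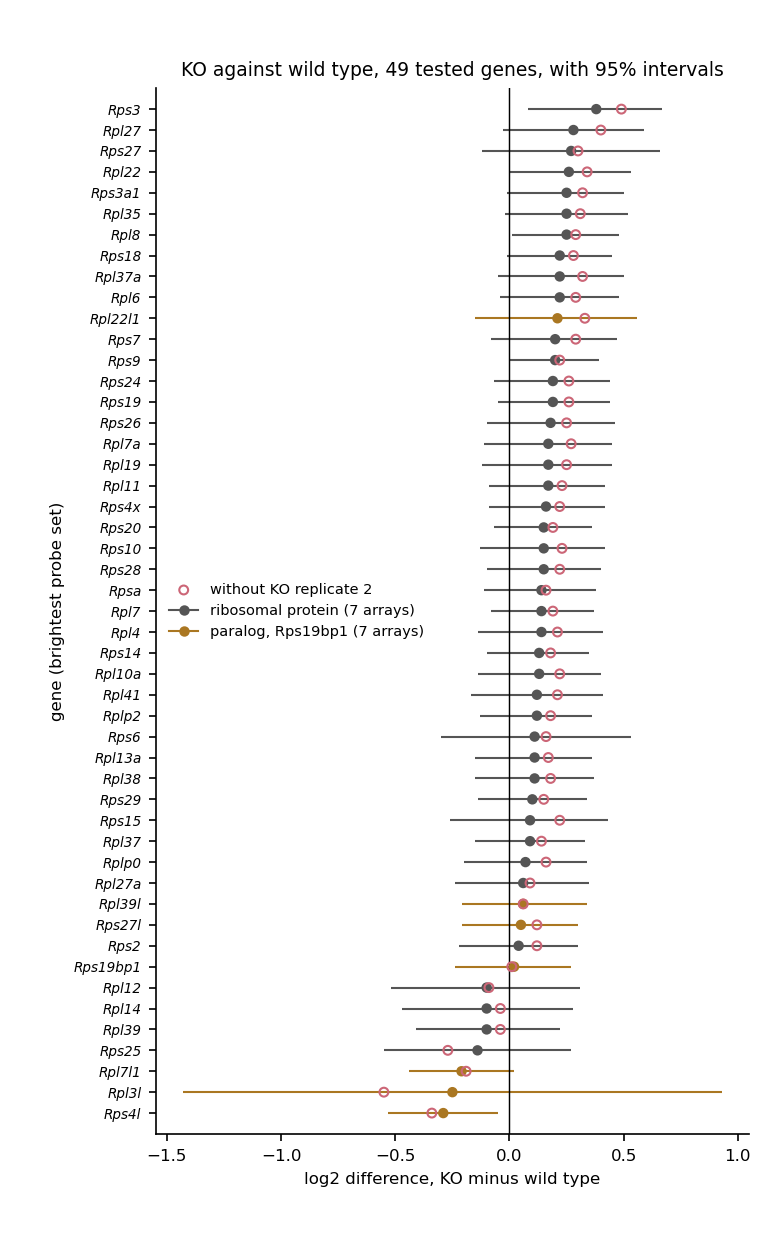
Log2 difference between KO and wild type for each of the 49 tested genes, sorted, with the 95% interval from the fit of 7 arrays; open circles give the difference without KO replicate 2. Most points lie to the right of 0 while nearly all intervals include it; Rps3 is highest at 0.38 (0.49 without KO replicate 2) and Rps4l lowest at -0.29.

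Of the 20 tested small-subunit genes, 19 had a positive difference and 0 passed, with a median of 0.16 (0.22 without KO replicate 2, where Rps3 passed). Rps3, which lines the entry of the messenger RNA channel and also acts in DNA repair, had the largest difference of all members. It read 14220, 13517 and 13419 on wild-type replicates 1, 3 and 4, and 17713, 13977, 19126 and 21291 on KO replicates 1 to 4. KO replicates 1, 3 and 4 lay above every wild-type array, and KO replicate 2 lay within the wild-type range. The log2 difference was 0.38 ± 0.13 (95% interval 0.08 to 0.67, 1.30-fold, limma adjusted p = 0.189). Without KO replicate 2 it was 0.49 (interval 0.27 to 0.71) with an adjusted p of 0.016, and within the second deposited set 0.58 with 0.0349. The other 2 probe sets of Rps3, which are dim, gave 0.25 and -0.34, and neither passed.

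Rps9, a protein that binds the ribosomal RNA early in assembly, was the other gene with KO above wild type throughout. It read 14428, 13494 and 14445 in wild type and 16647, 15617, 15754 and 16813 in KO. KO replicate 2 was the lowest KO array, just under KO replicate 3 (0.20 ± 0.09, limma adjusted p = 0.296). Without that array the difference was 0.22.

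Rps3a1, Rps18 and Rps27, all proteins of the small subunit, completed the genes with large positive differences (0.25, 0.22 and 0.27). Rps18 read 20285 to 21062 in wild type and 20988 to 27327 in KO, the lowest KO value being again that of KO replicate 2. Rps27, read on a dimmer probe set, had 987, 1015 and 786 in wild type and 1052, 1062, 1554 and 908 in KO. KO replicate 3 was highest and KO replicate 4 lay within the wild-type range. Rps7, which also binds the p53 regulator Mdm2, differed by 0.20 on its brightest probe set. Its second probe set, singled out because of its values, gave 0.36 with all arrays and 0.48 with a limma adjusted p of 0.0253 without KO replicate 2. Of the 47 tested probe sets of members other than the brightest, 0 passed with all arrays (1.59% of all probe sets). Without KO replicate 2, 3 of the 47 rose, against 3.14% of all. Besides that of Rps7 these were a probe set of Rpl27 (0.46, adjusted p = 0.0208) and of Rpl13a (0.62, 0.0406).

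Rps6, the protein that the S6 kinases phosphorylate downstream of mTORC1, read 626, 586 and 1050 in wild type and 772, 715, 872 and 815 in KO. Its wild-type arrays alone spanned the whole KO range (0.11, interval -0.30 to 0.53). A second, dimmer probe set of Rps6 read 103.1, 95.6 and 97.5 in wild type and 151.3, 115.9, 138.3 and 125.9 in KO. There every KO array was above every wild-type array (0.33, limma adjusted p = 0.449). Rpsa, which also serves as a laminin receptor, read 13969 to 15685 in wild type and 14009 to 18410 in KO (0.14, adjusted p = 0.613). Rps2 differed least among the bright small-subunit genes (0.04, interval -0.22 to 0.30), with 0.12 without KO replicate 2 and -0.04 after quantile normalization. The 1 negative difference of the subunit was that of Rps25, on a probe set at 418.5 to 544 in wild type and 328 to 557 in KO (-0.14, adjusted p = 0.775; -0.27 without KO replicate 2). Rps19bp1, the member that is no ribosomal protein, read 657 to 667 in wild type and 621 to 715 in KO (0.02).

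**Figure D3:**
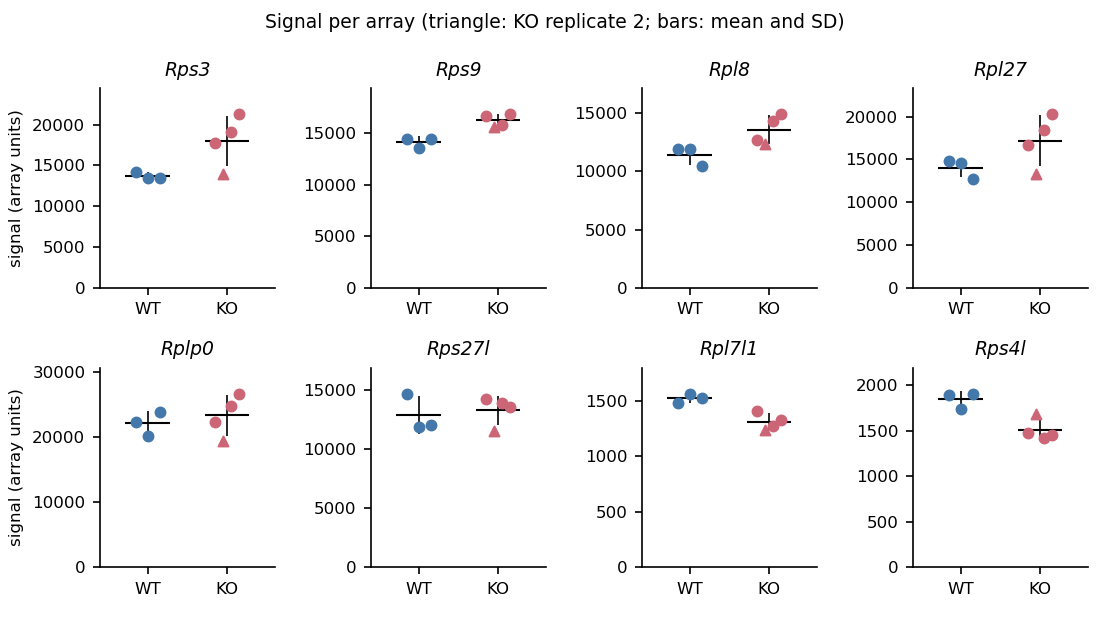
Signal of 8 members on every array (blue wild type, n = 3; red KO, n = 4; the triangle is KO replicate 2), with the mean and SD as black lines and each vertical axis starting at 0. Rps9 and Rpl8 lie higher and Rpl7l1 and Rps4l lower in every KO array than in every wild-type array, while the triangle of Rps3 and Rpl27 falls among the wild-type points.

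The paralogs had differences of both signs. Protein-coding paralogs of this kind replace or accompany the common form in some tissues. Of the 6, 3 differences were positive and 3 negative, 0 passed, and the median was -0.08. Rps4l, the relative of Rps4x that RefSeq classes as a transcribed pseudogene, read 1891, 1741 and 1908 in wild type and 1476, 1689, 1422 and 1455 in KO. Every KO array was below every wild-type array (log2 difference -0.29 ± 0.11, limma adjusted p = 0.214). Without KO replicate 2 the difference was -0.34 (adjusted p = 0.0765). Rps4x itself, carried on the X chromosome, read 15142 to 16904 in wild type and 16385 to 21081 in KO (0.16, adjusted p = 0.54). Rps4l and Rps4x thus lay on opposite sides of 0, and neither passed.

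Rpl7l1, a relative of Rpl7 that acts in ribosome assembly, was likewise lower in every KO array. It read 1480.5, 1565 and 1522 in wild type and 1410.5, 1234, 1269 and 1328 in KO (-0.21 ± 0.10, adjusted p = 0.344). A second probe set gave -0.23 and the dimmest 0.02. Rpl7 differed by 0.14 on its brightest probe set, and by 0.26 and 0.16 on the others. Rpl22l1, the relative of Rpl22, read 5244, 4532 and 4688 in wild type and 5303, 4277, 5624 and 7471 in KO, a difference of 0.21 (0.33 without KO replicate 2). KO replicate 4 was highest and KO replicate 2 lowest of the 7. Rps27l, which p53 is known to induce, read 11877 to 14727 in wild type and 11529 to 14225 in KO (0.05, interval -0.21 to 0.30; 0.12 without KO replicate 2), and its 3 probe sets lay between 0.04 and 0.08. Rpl39l, the relative of Rpl39, had 0.06 (811 to 1070 and 948 to 995).

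Rpl3l, the form of Rpl3 found in skeletal and heart muscle, differed within KO by deposited set. It read 127, 108 and 107 in wild type and 244, 194, 43 and 17 on KO replicates 1 to 4 (-0.25 ± 0.54, adjusted p = 0.87). KO replicates 1 and 2, of the first deposited set, lay above all wild-type arrays, and KO replicates 3 and 4, of the second, below them. The difference was -0.55 without KO replicate 2, -0.47 with the set as a covariate and -1.23 within the second set alone (limma adjusted p = 0.191). The 14 skeletal muscle markers ran partly the same way. Their summed signal in KO was 54069 (replicate 1), 47810 (replicate 2), 31182 (replicate 3) and 27015 (replicate 4). In wild type it was 54397, 31306 and 33211. The part of muscle in the reading of Rpl3l was not tested. In bulk samples fewer cells of a type and less RNA per cell cannot be told apart.

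A further 98 probe sets carried the symbol of 1 ribosomal protein gene together with pseudogenes or predicted loci only, for 36 genes, of which 24 have no probe set of their own. They are counted here without naming genes. Of these, 89 were tested, 80 had a positive difference, the median was 0.16, 0 passed in limma and 12 had an unadjusted p under 0.05, where 16.5% of all probe sets did. In 8 the KO arrays were all above the wild-type arrays (7.48% of all probe sets) and in 0 all below (7.25%). Their probes can bind several near-identical transcripts, so these values are not independent of the members'. Without KO replicate 2, 4 rose (3.14% of all probe sets) and 1 fell (4.21%), and the median was 0.22. For 16 of the 50 named members the brightest probe set was itself of a type (_x_at or _s_at) that can bind several transcripts. With other probe sets in their place where the gene had one, the median was 0.14, and 40 of 48 tested genes were positive (50.1% of all). Genes without another, such as Rpl38, kept theirs. Some replacements were dim, such as that of Rps20 (-0.20, mean signal 106), and others bright, such as that of Rpl13a (0.20, 18568).

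The mitochondrial ribosomal proteins, which translate the RNAs of the mitochondrial genome, had a median near 0. Of 76 measured genes, 30 differences were positive and 46 negative, and the median was -0.05. Mrpl55, a protein of the mitochondrial large subunit, was the 1 of 76 that fell (0.644% of all probe sets), from 2848.7, 2670.3 and 2495.6 in wild type to 1670.7, 1800.5, 1665.8 and 1766.1 in KO (log2 difference -0.62 ± 0.10, limma adjusted p = 0.0228). The groups were far apart, and KO replicate 2 was close to the other KO arrays. The call of Mrpl55 was lost when any 1 of the 6 arrays other than KO replicate 2 was left out, with differences between -0.67 and -0.57. Mrps2 (-0.42, adjusted p = 0.0942), Mrpl18 (-0.37, 0.118) and Mrpl54 (-0.35, 0.142) were lower in every KO array and did not pass. In all, 10 of the 76 were lower in every KO array and 3 higher, against 7.25% and 7.48% of all probe sets. On KO replicates 3 and 4 the mitochondrial median was -0.06 and -0.05, and that of the cytosolic ribosomal proteins proper 0.25 and 0.34. The mitochondrial list was dimmer, with a summed signal of 292700 over 76 genes on wild-type replicate 1, against 656300 over the 42 cytosolic ones. Some bright genes outside both lists were also, among the KO arrays, lowest on KO replicate 2 and highest on KO replicate 4. Eef1a1 read 29193, 25737, 32916 and 37474 on KO replicates 1 to 4, and Tpt1 26203, 24006, 32287 and 37377. The same order of KO arrays held for Ucp1 (29168, 26887, 32388 and 37577), Cox8b (28361, 27022, 32051 and 34130) and Eef2 (22012, 18878, 24235 and 26483). Cidea was highest on KO replicate 4 as well, but lowest on KO replicate 1. Eif5a (16079, 14773, 15796 and 15416) and Cox7a1 (17181, 15318, 15645 and 15379) were highest on KO replicate 1. The difference between the 2 lists, and the part of brightness in it, were not tested.

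**Figure D4:**
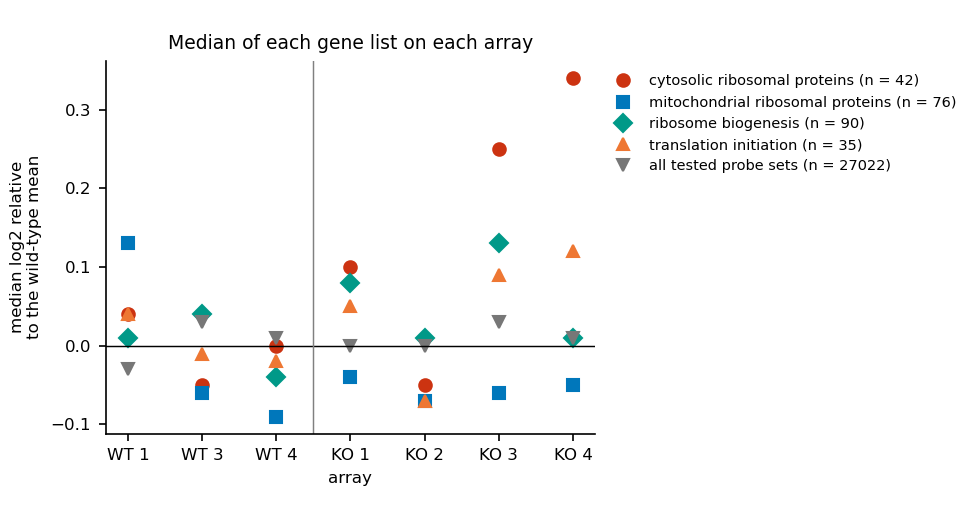
Median log2 signal of each gene list on each array relative to the wild-type mean, with the number of tested genes in the legend. The cytosolic ribosomal proteins reach 0.34 on KO replicate 4 and -0.05 on KO replicate 2, while the mitochondrial ones stay between -0.09 and 0.13 and all tested probe sets between -0.03 and 0.03.

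Translation factors were read from gene lists. The shares over all probe sets to set these counts against are 1.59% for passing, 16.5% for an unadjusted p under 0.05 and 50.1% for a positive difference. Of 35 tested initiation factor genes 0 passed in limma and 4 had an unadjusted p under 0.05 (median 0.11, 24 positive). Leaving out KO replicate 2, 2 rose, against 3.14% of all. Eif4b, which helps the helicase of the cap complex, read 3795, 3804 and 4342 in wild type and 5463, 4432, 6009 and 7023 in KO (0.51 ± 0.15, limma adjusted p = 0.114; 0.0125 without KO replicate 2). Eif3f, a subunit of the scaffold factor of initiation, had 0.35 (adjusted p = 0.134; 0.0486 without that array), Eif2a 0.30 and Eif3a 0.27, and in all of these every KO array was above wild type. In all, 4 of the 35 were higher in every KO array and 2 lower, against 7.48% and 7.25% of all probe sets. Of 12 elongation and termination factor genes 0 passed, and 0 had an unadjusted p under 0.05 (median 0.03, and 0.05 without KO replicate 2). Eef2, the translocase, read 18166 to 20938 in wild type and 18878 to 26483 in KO (0.23, adjusted p = 0.396), Etf1 had -0.18, Eef2k -0.25 and Eef1a2 0.29. Of the 12, 1 (Etf1) was lower in every KO array and 0 were higher, against 7.25% and 7.48% of all probe sets. Fau, the only measured ribosomal protein gene under another symbol, differed by 0.11.

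Of 90 tested genes of ribosome biogenesis 0 passed with all arrays, and 14 had an unadjusted p under 0.05 (16.5% of all probe sets did). The median was 0.05, and 54 were positive (50.1% of all). With KO replicate 2 left out, 5 rose (Nop53, Gnl3, Nop10, Ipo7 and Nob1), against 3.14% of all. Nop53, a large-subunit assembly factor, read 3995, 3728 and 3881 in wild type and 4833, 4997, 5994 and 6181 in KO (0.50 ± 0.11, limma adjusted p = 0.0604). It passed without KO replicate 2 (0.0207) and with the deposited set as a covariate (0.0407). Heatr1 (0.51), Gnl3 (0.46) and Utp4 (0.38) were higher in every KO array, with adjusted p between 0.12 and 0.134. Of the 90, 10 were higher in every KO array and 6 lower, against 7.48% and 7.25% of all probe sets. Of 18 RNA polymerase I genes 0 passed and 1 had an unadjusted p under 0.05 (median 0.00). Taf1d, a subunit of its promoter factor, read 339, 301 and 228 in wild type and 485, 405, 689 and 823 in KO (0.95 ± 0.23, adjusted p = 0.0725; 0.0127 without KO replicate 2). Taf1c (-0.40), Taf1b (-0.27) and Polr1a (0.22) overlapped.

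Of 31 tested genes of the mTORC1 pathway 0 passed with all arrays, and 7 had an unadjusted p under 0.05 (16.5% of all probe sets did). The median was 0.12, and 22 were positive (50.1% of all). With KO replicate 2 left out, 3 rose, against 3.14% of all. Eif4ebp1, a repressor of cap-dependent translation that mTORC1 inactivates, read 9518, 7984 and 9860 in wild type and 13703, 11715, 12422 and 14324 in KO. All KO arrays, KO replicate 2 included, were above wild type (0.52 ± 0.11, limma adjusted p = 0.0521; 0.0147 without KO replicate 2). Fnip1 and Flcn, partners in lysosomal nutrient sensing, had 0.57 (adjusted p = 0.107) and 0.50 (0.187), and passed without that array (0.0112 and 0.0224). Sesn2, an inhibitor of the complex, had 0.65 (0.115). In the Myc family, whose best known member drives ribosome production, 1 of 13 passed. Mycl rose (0.951% of all probe sets did), from 74, 18.9 and 18 to 684.3, 245.4, 340.9 and 507.1 (limma adjusted p = 0.0152). Wild-type replicates 3 and 4 lay under the offset of 30.6 added to all signals, so no size is given for the difference. Mycl passed the filter on low values through its KO arrays, and the filter at the 60th percentile left it out. Its call was lost without KO replicate 3 or 4 and without wild-type replicate 3 or 4, where the adjusted p was 0.0516, 0.061, 0.077 and 0.0727. Myc read 436 to 443 in wild type and 564 to 696 in KO (0.51, adjusted p = 0.0746; 0.0231 without KO replicate 2). Mxi1, an antagonist of Myc, had 0.43 (0.0746) and Mxd1 0.48 (0.337).

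Markers of other cells were read on the same arrays. The summed signal of the 10 measured of 11 neutrophil markers was 7060, 4620 and 4837 in wild type and 6615, 7009, 9443 and 11530 in KO, so KO replicates 3 and 4 were highest, as for the ribosomal proteins. Of the 8 tested, 1 rose (Chil3, 2.09, limma adjusted p = 0.034), against 0.951% of all probe sets, and the median was 0.60. When KO replicate 2 was left out, 3 rose, against 3.14% of all. The summed signal of the 12 macrophage markers was 13086 to 14185 in wild type and 10527, 14599, 15580 and 17718 in KO. Of the 12, 0 passed with all arrays (1.59% of all) and 1 rose without KO replicate 2 (3.14% of all). The 10 fibroblast markers summed to 71704 to 81328 in wild type and 46148, 75180, 65659 and 69503 in KO. All 10 had a negative difference (median -0.31), where 13491 of 27022 probe sets did. With all arrays 0 passed (1.59% of all), and 3 fell without KO replicate 2 (4.21% of all). Relative to the wild-type mean, their median was -0.82, -0.05, -0.22 and -0.17 on KO replicates 1 to 4. The 9 endothelial markers summed to 16298 to 19701 in wild type and 16689 to 19794 in KO. Of 15 lymphocyte and thymus markers 13 were measured and 3 passed the filter on low values; Cd3e, Cd4, Rag1 and Rag2 did not, and the sums were 1086 to 1311 and 1051 to 1253. The 7 measured of 11 erythroid markers summed to 3719 to 6240 and 3701 to 5692, and the 8 brown fat markers to 101750 to 116401 and 96665 to 122696, highest on KO replicate 4. The ratio of 3′ to 5′ actin control probe sets, a sign of RNA quality, was 1.24 to 1.29 in wild type and 1.14, 1.39, 1.24 and 1.35 in KO. The part of these measures in the lean of the ribosomal proteins was not tested.

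**Figure D5:**
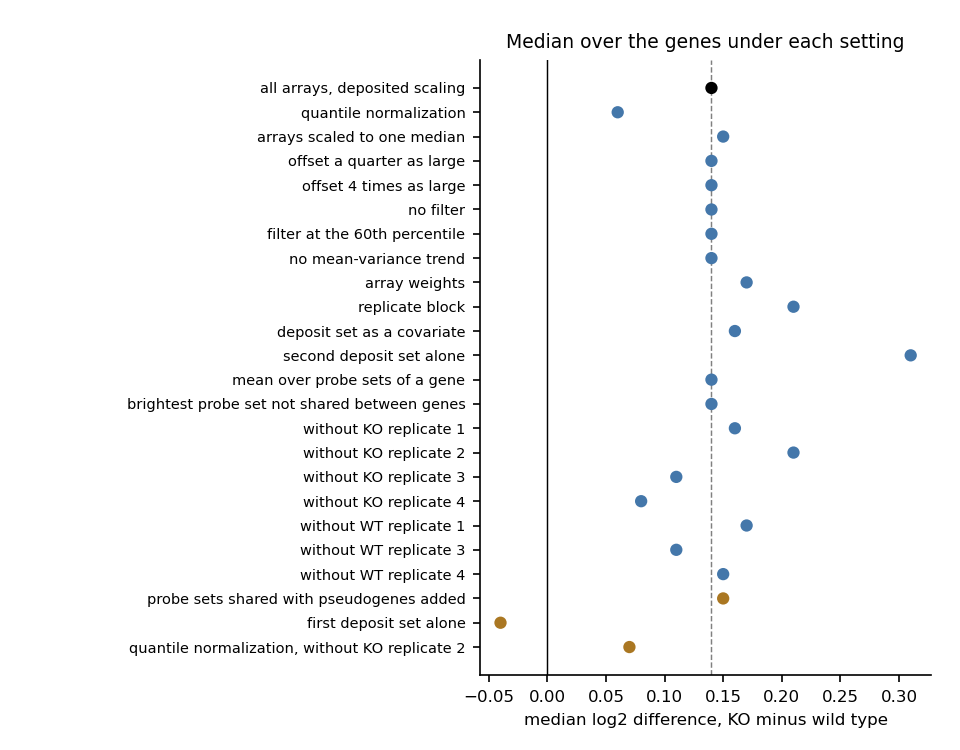
Median log2 difference over the tested ribosomal protein genes under each setting (black: as reported; blue: other settings; brown: settings added after seeing the data), with the reported median of 0.14 as a dashed line. It is 0.06 after quantile normalization, 0.31 in the second deposited set alone and -0.04 in the first.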

How the data were processed

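Total RNA of 7 brown fat samples (4 KO, 3 wild type) was hybridised, 1 sample per array. The deposited values are signal intensities on a linear scale, 1 per probe set and array; they were made with GCOS 1.2, per the submitters' processing notes, and the summarisation and scaling are not given in the sources used here. No detection calls were used. The members and the gene lists were chosen with earlier results of these data known.

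Probe sets with 1 gene symbol were named, with symbols updated through gene identifiers of a RefSeq table (GRCm38.p6). An offset of 30.6, the 20th percentile of the whole table, was added to each signal before log2. Of 45037 probe sets, the 27022 above the 40th percentile of mean log2 value over the 7 arrays were tested. The test between KO and wild type was two-sided and used limma 3.58.1 (R 4.3.3) with lmFit and a trended eBayes. Its p-values were adjusted by Benjamini-Hochberg over all 27022, and 0.05 was the threshold. The fit was tested on simulated data. Each gene was read on its brightest probe set by mean signal over the 7 arrays.

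Genes named were those past the threshold with all arrays or without any 1 array, the 10 largest positive and the largest negative differences, paralogs, the stalk genes and Rpsa, and of each other list the 4 smallest p-values. Other genes named were picked for their values. Alternatives covered scaling, offset, filter, variance model, array weights, blocks, choice of probe set, threshold and leaving out each array. Same-numbered arrays deviated together with correlations of 0.0567, 0.149 and 0.105, so the replicate numbers were not taken as pairs. No pair of arrays held identical values.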

Additional observations from a re-analysis of the deposited data

Results flagged for a closer look

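Of the 78 genes checked, 1 had a KO array that stood far from the other 3. Flcn, a partner in lysosomal nutrient sensing, had a signal of 1554 in KO replicate 2, while the remaining KO samples had 2315 to 2413. This gap was 0.885 of the range of the KO group, above the limit of 0.829 for 4 samples. Chance alone passes this limit in about 1 of 20 groups. No ribosomal protein gene passed it.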

How the results depend on the processing

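The count of 0 ribosomal protein genes past the threshold was 1 with the replicate block, in the second deposited set alone, without KO replicate 2, and with quantile normalization without KO replicate 2 (added after seeing the data). It ranged from 0 to 1 over the fits that left out 1 array. In each of these 4 settings the gene was Rps3. The replicate block moved the count over all probe sets to 2183 and the members' median to 0.21, and it leaves out KO replicate 2, which shares its number with no wild-type array. The median was 0.31 in the second set alone, -0.04 in the first set alone, and between 0.08 and 0.21 without 1 array. It was 0.06 after quantile normalization and between 0.14 and 0.17 under the other planned scalings, offsets, filters, variance models and probe set choices. Of 977 member values under the settings other than those added after seeing the data, 14 had another sign than with all arrays, in 10 of 49 genes, none of them past the threshold. Among the added settings, the first set alone turned the sign of 29 of 49 genes, and quantile normalization without KO replicate 2 that of 2. Over all 27022 probe sets, 431 passed with all arrays, 406 with quantile normalization and 1312 with array weights. The deposited set as a covariate gave 631, the second set alone 726 and the offset 4 times as large 459. Fits without 1 array gave 7 to 1986, arrays scaled to one median 235 and no mean-variance trend 6. The mean over probe sets gave 245 genes, and the filter at the 60th percentile, on fewer probe sets, 588. The list counts below stand against these and the 2183 above. For the threshold of 0.1 no count over all probe sets is given. List counts at that threshold thus have no share beside them and are not read as results. Initiation factors past the threshold numbered 1 with array weights, the replicate block and the second set, and 0 to 2 without 1 array. Ribosome biogenesis had 1 with quantile normalization, the filter at the 60th percentile, array weights, the deposited set as a covariate and a threshold of 0.1, 2 in the second set, 4 with the replicate block, and 0 to 5 without 1 array. RNA polymerase I had 1 with array weights, the replicate block, the second set and a threshold of 0.1, and 0 to 1 without 1 array. The mTORC1 list had 1 with quantile normalization, the offset 4 times as large, the filter at the 60th percentile and a threshold of 0.1, 2 with array weights, 4 with the replicate block, and 0 to 3 without 1 array. The Myc family had 0 with the filter at the 60th percentile and without the mean-variance trend, 2 with the mean over probe sets, 3 with array weights, the replicate block and a threshold of 0.1, and 0 to 3 without 1 array. The mitochondrial list had 0 with arrays scaled to one median, without the trend and in the second set, 2 at a threshold of 0.1, and 0 to 1 without 1 array. The first set alone and the probe sets shared with pseudogenes (median 0.15 together with the members) were also added after seeing the data. The small number of arrays, and for dim probe sets the signal over background, limit the precision of differences of this size.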
